A study of Glycine max with 8 samples.

Results

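In mature soybean (Glycine max) leaves, 105 of 31785 listed genes had a higher RNA level in every library of the line labelled OX5 than in every library of wild type (WT), by a margin of at least 1.5 times. RNA sequencing of 4 libraries per line measured each gene as FPKM, a count of fragments relative to gene length and library depth. The 105 genes were chosen on these same values. After 1 was added to each FPKM, the lowest of the 4 OX5 libraries had to be at least 1.5 times the highest of the 4 WT libraries, with a mean of at least 1 FPKM in OX5 and at least 1 WT library above 0. Genes were ranked by that ratio, and the limit of 300 genes was not reached. The levels of these genes in the 2 lines are therefore a description of how they were chosen and carry no test.

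Plants of both lines had sufficient phosphorus, and leaves were taken at R6, when the pods hold full-sized green seeds. The labels give no gene, promoter or allele for OX5, and no gene is taken here as the one altered. Each group is a single line, and a difference shared by all OX5 libraries cannot be told apart from any other difference between the lines. Whether the libraries of a line are separate plants is not in the labels. In whole leaves, more RNA per cell and more cells of a type that holds the RNA cannot be told apart either.

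At R6 the seeds of soybean are still filling, and mature leaves supply them with sugars and with nitrogen and phosphorus released from leaf proteins and nucleic acids. The soybean genome keeps many genes as near-identical copies from ancient duplications, and reads from such copies can be split or misplaced when they are counted; the sources used here do not say how the authors treated them. No file gives names for the gene IDs, and 0 of 31785 IDs were found in a RefSeq table of 59048 soybean genes. The genes are therefore described by rank and chromosome, with an ID for 2 of them only, and the leaf label could not be checked against marker genes. Roles and sequences are not given.

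At each gene the FPKM moves in steps of a single read, and these steps gave the reads and the gene length behind each value. A WT library held 18787710 to 19177504 reads at listed genes, and an OX5 library 17555166 to 19162209. The 105 genes had a median of 84.5 reads per library in WT and 301 in OX5, and 77 of them had at least 100 reads in each OX5 library. OX5 replicates 1 and 2 stand apart from OX5 replicates 3 and 4 over all genes, as the values by library below also show. The median of all 30424 tested genes, relative to the WT mean of log2(FPKM + 1), was 0.11 and 0.12 in OX5 replicates 1 and 2, 0.01 in OX5 replicate 3 and −0.08 in OX5 replicate 4.

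The ratio of the lowest OX5 to the highest WT value ran from 1.502 to 29.8, with a median of 1.69. It was at least 3 for 6 genes and at least 2 for 22, while 31 lay between 1.5 and 1.6. Just inside the limit, a chromosome 1 gene at 1.502 had 18.5, 29.3, 27.9 and 34.3 FPKM in WT, in the order of the replicates, against 56.9, 54.9, 74.1 and 51.9 FPKM in OX5. Just outside, at 1.497, a chromosome 2 gene had 1.48, 0.780, 1.06 and 1.56 FPKM in WT and 4.52, 7.04, 2.84 and 2.97 FPKM in OX5. Another 59 genes met the other conditions at a ratio from 1.4 to 1.5, so the limit cuts through a continuous range. Leaving out 1 library relaxes the rule, and 209 genes met it without OX5 replicate 3, 184 without OX5 replicate 4, and 161, 171 and 172 without WT replicates 1, 2 and 4. A further 9 loci met the ratio but had no read in WT and were left out by the rule. Their lowest OX5 values ran from 1.95 to 16.2 FPKM. Some of their ratios were above the 4.44 of rank 2, so the ranks do not cover all the strongest rises.

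**Figure D1:**
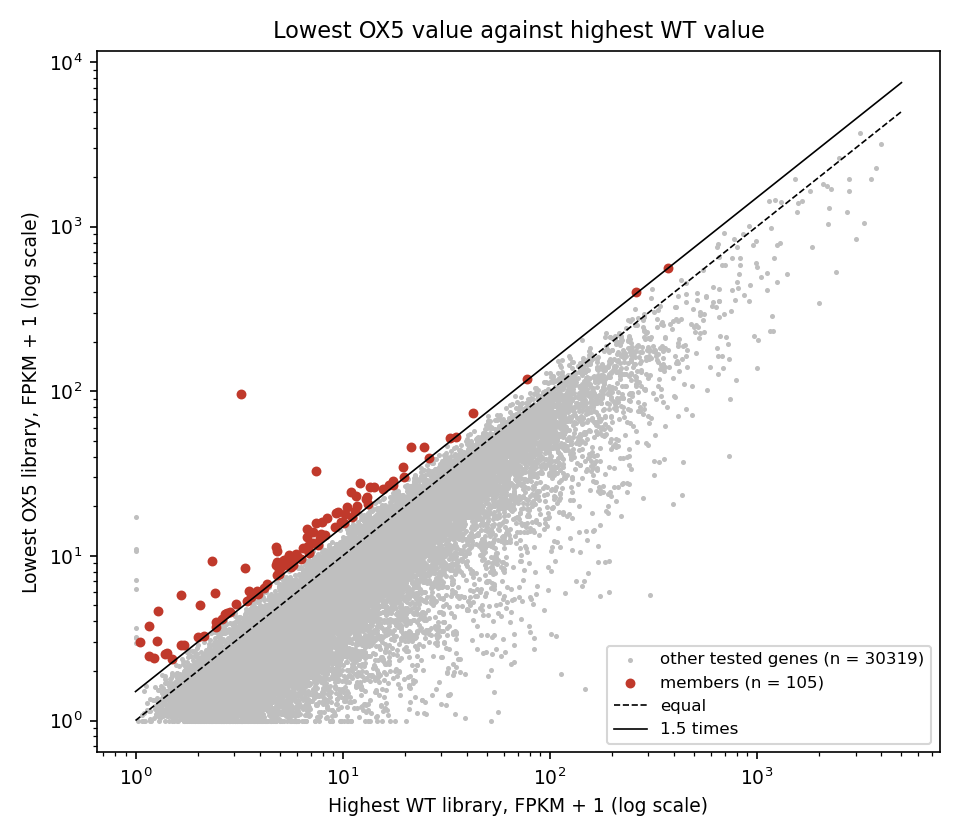
Highest WT library (horizontal) against lowest OX5 library (vertical) for each of 30424 tested genes, both as FPKM + 1 on log axes; red points are the 105 members, and the lines mark equal values and 1.5 times. The members lie from 1.502 times upwards, with a median of 1.69 and 22 of them at 2 or more. A single member at 29.8 stands far above the other members. Grey points above the 1.5 line are the 9 loci with no read in WT, with a lowest OX5 value of up to 16.2 FPKM.

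The mean FPKM in OX5 was 1.81 to 222 times that in WT, with a median of 3.20. It was at least 2 times for 102 genes, at least 5 times for 26 and at least 10 times for 11. On the log2(FPKM + 1) scale, where low genes appear less changed than they are, the median difference was 1.37, against 0.04 for all 30424 tested genes. A difference of at least 1 on this scale was seen in 96 of the 105 and in 1.72% of all tested genes. In a limma fit across all tested genes with Benjamini-Hochberg adjustment, 100 of the 105 were called higher at an adjusted p under 0.05, against 1.38% of all tested genes. The rule used the same contrast, so neither count is evidence about the members. Leaving out 1 library lowered the limma calls among members in each case, and among all tested genes except without OX5 replicate 3. That fit called 98 members higher, and 427 of 30424 tested genes against 421 with all libraries. Without WT replicate 1, WT replicate 4 and OX5 replicate 4, 88, 79 and 85 members were called, against 209, 169 and 247 tested genes called higher. The members called fell further in the other cases. Without WT replicate 3, 26 members were called higher, against 0.115% of tested genes, and with WT replicate 2 left out the values were 66 and 0.342%. With OX5 replicate 1 left out they were 38 and 0.171%, and with OX5 replicate 2 left out 63 and 0.253%.

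The members were mostly genes of low or moderate level in WT, as were most tested genes. A mean below 1 FPKM in WT was found for 16 (15.2%, against 8.98% of tested genes). It was from 1 to 5 FPKM for 47 (44.8%, against 32.9%) and from 5 to 20 FPKM for 36 (34.3%, against 37.3%). A mean of 20 FPKM or more was found for 6. The last band held 5.71% of the members and 20.8% of all tested genes. Together the 105 genes made up 0.188%, 0.197%, 0.210% and 0.227% of summed FPKM across the WT replicates, in order, and 0.550%, 0.609%, 0.442% and 0.478% across those of OX5. Much of this came from 2 genes, which held 45.5% to 48.3% of the members' FPKM in WT and 32.0% to 38.1% in OX5. Without them the share was 0.0987% to 0.117% in WT and 0.282% to 0.412% in OX5.

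**Figure D2:**
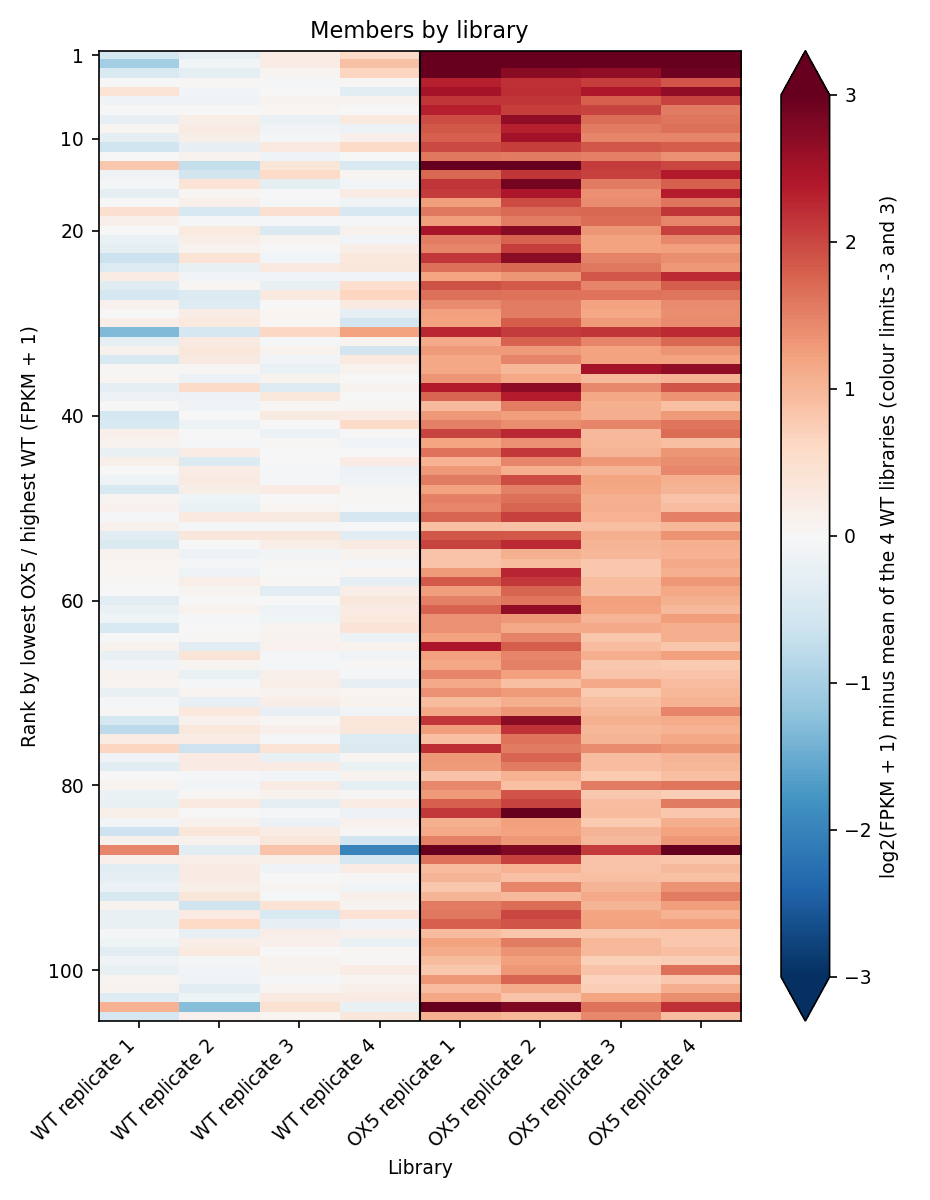
Each row is 1 of the 105 members in order of rank, each column 1 library, and the colour is log2(FPKM + 1) minus the mean of the 4 WT libraries, with colours limited at −3 and 3. All OX5 columns are red by the choice of the genes, and OX5 replicate 2 is the deepest, with a median of 1.67, against 1.43, 1.14 and 1.30 in OX5 replicates 1, 3 and 4.

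The highest ratio, 29.8, belonged to Glyma.19G026600.Wm82.a4.v1 on chromosome 19, a gene with an implied length of 4345 bases. Its level was 0.521, 0.812, 1.55 and 2.23 FPKM in WT, by replicate, against 170, 129, 121 and 95.3 FPKM in OX5. It went from place 26545 by mean level among tested genes in WT to place 556 in OX5, and its order within the lines ran in opposite directions: WT replicate 4 was the highest in WT, and OX5 replicate 4 the lowest in OX5.

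Rank 2, a gene on chromosome 7, had 0.976, 2.79, 3.65 and 6.404 FPKM in WT and 55.7, 43.5, 31.9 and 49.8 FPKM in OX5, in the order of the replicates. Rank 3, on chromosome 8, had 0.0775, 0.233, 0.586 and 1.34 FPKM in WT and 11.8, 8.69, 8.37 and 10.2 FPKM in OX5. In these 2 genes and in that of rank 1, no OX5 value came near the WT range. In all of them WT replicate 1 was the lowest and WT replicate 4 the highest of the WT libraries. That WT order was found in 22 members (20.95%) and in 20.83% of tested genes, so it does not set the members apart. The gene of rank 4, on chromosome 11, had 0.237, 0.282, 0.194 and 0.278 FPKM in WT and 5.31, 4.65, 4.27 and 3.63 FPKM in OX5. Its WT libraries lay close together, and the mean in OX5 was 18.0 times that in WT.

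Ranks 5 to 12 had ratios from 3.51 to 2.38. Rank 5, another chromosome 8 gene, had 0.661, 0.176, 0.266 and 0 FPKM in WT and 6.03, 4.83, 5.75 and 6.87 FPKM in OX5. Here WT replicate 1 was the highest WT library, unlike ranks 1 to 3. The genes of ranks 8, 9 and 10, on chromosomes 10, 18 and 2, shared another pattern, a peak in OX5 replicate 2. They had 9.73, 16.5, 7.84 and 7.41 FPKM, 5.33, 7.74, 4.07 and 4.44 FPKM, and 6.44, 11.4, 4.92 and 4.97 FPKM in OX5 replicates 1 to 4, above WT maxima of 2.37, 1.04 and 1.42 FPKM. On chromosome 17, rank 11 had 1.12, 1.69, 2.95 and 3.76 FPKM in WT and 11.6, 12.5, 10.8 and 10.3 FPKM in OX5. It was even in OX5 and uneven in WT. The gene of rank 12, on chromosome 6, was also even in OX5, with 0.173, 0.271, 0.0746 and 0.195 FPKM in WT and 2.54, 2.46, 2.37 and 2.02 FPKM in OX5.

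**Figure D3:**
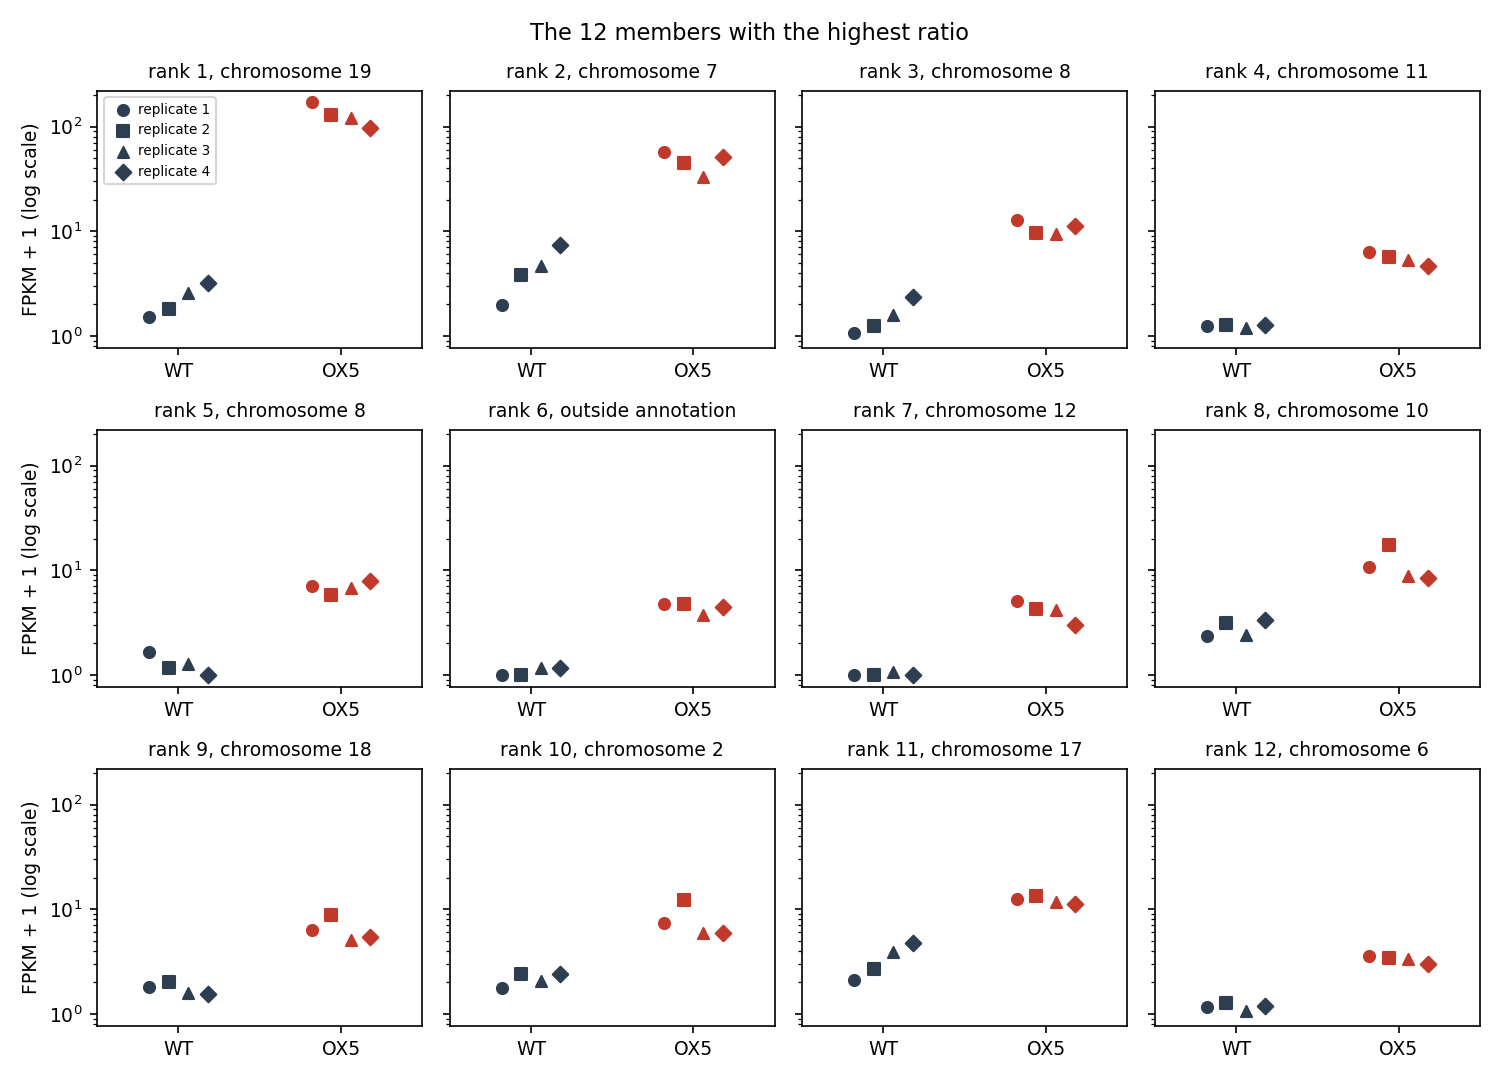
FPKM + 1 on a log axis in each library for the 12 members with the highest ratio, WT in dark blue and OX5 in red, with a symbol for each replicate number; there is no mean or error bar. In ranks 1, 2, 3 and 11 the WT symbols spread from replicate 1 (lowest) to replicate 4 (highest). WT replicate 1 was lowest and WT replicate 4 highest in 20.95% of members and 20.83% of tested genes. In ranks 8, 9 and 10 OX5 replicate 2 is the highest OX5 library.

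A few of the largest folds rest on very few WT reads. On chromosome 12, rank 7 had 0, 0, 2 and 0 reads in the WT libraries by replicate, against 141, 118, 104 and 66 reads in OX5. Its rate in OX5 was 225 times that in WT, with a 95% exact (Clopper-Pearson) interval of 61.8 to 1860. Reads were near absent in WT at 3 loci numbered outside the annotation as well, of ranks 6, 19 and 25. That of rank 6 had 0, 0, 1 and 1 reads in WT and 23, 24, 16 and 20 in OX5, a rate ratio of 43.4 (11.7 to 365). Rank 19 had 4, 0, 0 and 0 reads in WT and 35, 51, 54 and 43 in OX5, and rank 25 had 5, 0, 0 and 0 in WT and 29, 36, 57 and 79 in OX5. In each of these 4 loci at least 2 of the 4 WT libraries held no read, while no OX5 library fell under 16 reads. The intervals pool the reads of each line and cover counting error only. They take no account of spread between libraries or of the choice of these loci on this same contrast. The 3 loci numbered outside the annotation were 2.86% of the members, against 2.31% of listed genes.

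At the other end of the scale, the highest level in OX5 was that of Glyma.12G014300.Wm82.a4.v1 on chromosome 12, of rank 102 by ratio and 1415 bases long. Its level was 356, 260, 353 and 370 FPKM in WT, by replicate, and 627, 715, 558 and 706 FPKM in OX5, or 335 ± 50.3 against 652 ± 73.9 FPKM (SD, n = 4 each). It stood at place 115 by mean level among tested genes in WT and at place 53 in OX5. The next highest, of rank 89 on chromosome 7, had 174, 260, 201 and 258 FPKM in WT and 423, 455, 402 and 431 FPKM in OX5. In both genes the mean in OX5 was under 2 times that in WT, at 1.95 and 1.91 times, yet they added more FPKM to OX5 leaves than the gene of rank 1 did. Of the other genes with a high level, that of rank 96 on chromosome 12 had 67.7 ± 9.13 FPKM in WT and 123 ± 5.49 in OX5, and that of rank 43 on chromosome 11 had 38.5 ± 2.48 and 84.6 ± 12.4 (SD, n = 4 each).

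Which OX5 library was highest was not asked by the rule. Even genes meet it more readily, though, and the order found depends on the libraries that the rule used. OX5 replicates 1 and 2 were both above OX5 replicates 3 and 4 in 61 of the 105 members (58.1%), against 46.2% of all tested genes. The opposite order was found in 6 members (5.71%) and in 20.6% of tested genes. OX5 replicate 2 was the highest of its line in 64 members (60.95%, against 36.2% of tested genes), and OX5 replicate 3 was the lowest in 52 (49.5%, against 19.3%). OX5 replicate 4, the lowest in 47.3% of tested genes, was the lowest in 29.5% of members. The mean FPKM over OX5 replicates 1 and 2 was a median of 3.73 times the WT mean, and over OX5 replicates 3 and 4 it was 2.69 times. No test was made of these differences, since the library pairs are not groups of the study and the genes were chosen on the same values.

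**Figure D4:**
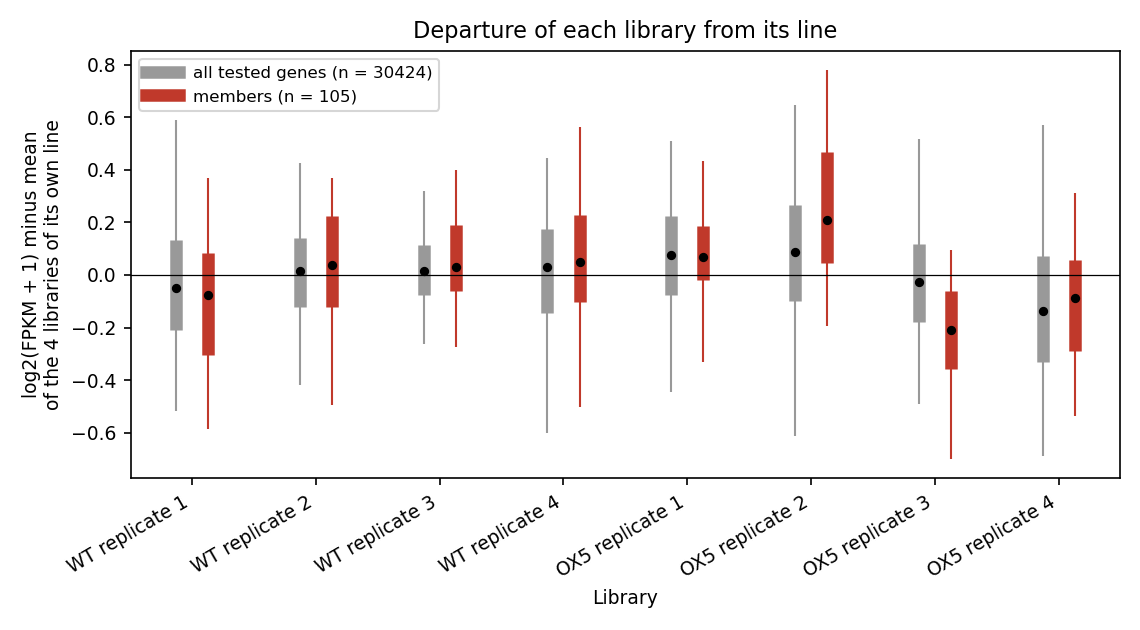
Departure of each library from the mean log2(FPKM + 1) of the 4 libraries of its own line, for the 105 members (red) and 30424 tested genes (grey); points are medians, thick bars the middle 50% of genes and thin lines the 5th to 95th percentile. The members' medians were 0.07 and 0.21 in OX5 replicates 1 and 2 and −0.21 and −0.09 in OX5 replicates 3 and 4, against 0.08, 0.09, −0.03 and −0.14 for all tested genes.

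The spread among OX5 libraries differed widely from member to member. After 1 was added, the highest OX5 library was under 1.2 times the lowest in 16 genes and at least 2 times in 28, with a median of 1.56, against 1.49 for all tested genes. The most even was the gene of rank 27, on chromosome 2, with 18.2, 17.9, 17.9 and 17.4 FPKM in OX5 replicates 1 to 4 and 3.22, 3.61, 6.402 and 8.53 FPKM in WT. The least even was that of rank 83, on chromosome 20, with 12.8, 26.2, 5.13 and 4.59 FPKM in OX5 and 2.59, 2.22, 2.12 and 1.83 FPKM in WT. Its OX5 replicates 1 and 2 stood far above the other pair. The reverse was clearest in the gene of rank 35, also on chromosome 20, with 1.87, 1.54, 6.18 and 7.10 FPKM in OX5 and 0.312, 0.312, 0.118 and 0.385 FPKM in WT. These 2 genes of the same chromosome thus had opposite orders within OX5, though both lay above WT in every library. Genes in this paragraph and the next were picked for their spread after their values were seen.

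Spread within WT was largest at a few members too. With 1 added, the highest WT library was at least 2 times the lowest in 14 members (13.3%, against 13.9% of tested genes). The gene of rank 31, on chromosome 11, had 3.29, 6.64, 15.5 and 23.7 FPKM in WT, by replicate, and 50.6, 44.96, 46.6 and 50.1 FPKM in OX5. WT varied severalfold there while OX5 was nearly even. The gene of rank 87, on chromosome 3, had 10.1, 2.24, 6.31 and 0 FPKM in WT, from 135, 30, 84 and 0 reads, and 46.0, 27.0, 16.2 and 35.8 FPKM in OX5. That of rank 104, on chromosome 9, had 25.1, 4.25, 16.4 and 10.03 FPKM in WT and 121, 87.2, 38.3 and 57.6 FPKM in OX5. In both, WT replicate 1 was the highest WT library and OX5 replicate 3 the lowest OX5 library. WT replicate 1 was the lowest WT library in 44 members (41.9%, against 38.9% of tested genes), a share near that of all tested genes.

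Members were found on all 20 chromosomes, 102 genes in all. Chromosome 20 held the most, with 9 of its 1394 listed genes (0.646%), followed by chromosome 4 with 8 of 1449 (0.552%). The highest share after chromosome 20 was that of chromosome 14, with 7 of 1185 (0.591%). Chromosome 16 held 1 of 1176 (0.0850%) and chromosome 17 held 2 of 1544 (0.130%). These counts are small, and no test of the spread was made.

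Among tested loci in order of ID, 2 pairs of members were successive and 7 pairs lay within 10 loci. These counts were not set against those of other genes. In the successive pair on chromosome 2, the genes of ranks 36 and 91 had 13, 6, 15 and 12 and 39, 55, 50 and 43 reads in the WT replicates, and 79, 72, 53 and 58 and 90, 162, 104 and 135 reads in those of OX5. In that on chromosome 20, the genes of ranks 69 and 33 had 9.57, 8.76, 10.5 and 7.36 and 3.80, 4.52, 3.69 and 1.98 FPKM in WT, and 21.05, 17.6, 20.95 and 18.0 and 9.57, 9.56, 9.13 and 10.2 FPKM in OX5. The mean FPKM in OX5 was 5.94 times that in WT at rank 36 and 2.74 times at rank 91, and 2.15 times at rank 69 and 2.75 times at rank 33. OX5 replicate 2 was the OX5 library with the most reads at rank 91 and not at rank 36. Of the 199 tested loci directly beside a member, 22 (11.1%) had every OX5 library above every WT library. The share was 8.87% in all tested genes. It was 8.58% in the tested loci with a chromosome that were no members, a set that includes the 199. The limma fit called 3 of the 199 higher (1.51%, against 1.05% of that set). The median difference of the 199 was 0.10 on the log2(FPKM + 1) scale, against 0.04 in that set. The sources used here do not say how reads that overlap 2 genes were counted, or whether strand was used.

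The members were shorter than most soybean genes measured here, a property that the rule did not use. Their median implied length was 1191 bases, with 25th and 75th percentiles of 835 and 1716 bases, against a median of 1830 bases for all tested genes. Of the 105, 39 (37.1%) were under 1000 bases, against 15.6% of tested genes. Members made up 0.941% of tested genes under 500 bases, 0.788% from 500 to 1000, 0.362% from 1000 to 2000, 0.179% from 2000 to 4000 and 0.0755% at 4000 bases or more. The share fell with each step in length. In contrast, the 101 genes that met the mirrored rule, lower in every OX5 library, had a median of 1889 bases, and 12.9% of them were under 1000 bases. The difference in length was also seen at matched level: from 1 to 5 FPKM in WT the median was 1119 bases for members and 1917 for tested genes, and from 5 to 20 FPKM it was 1050 and 1912. Below 1 FPKM the medians were 1588 and 1975 bases, and 6.25% of 16 members were under 1000 bases, against 8.90% of tested genes. Under 20 other settings of the rule the median length of the chosen genes ran from 1066 to 1562.5 bases, the last without OX5 replicates 3 and 4, when 1672 genes met the rule.

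**Figure D5:**
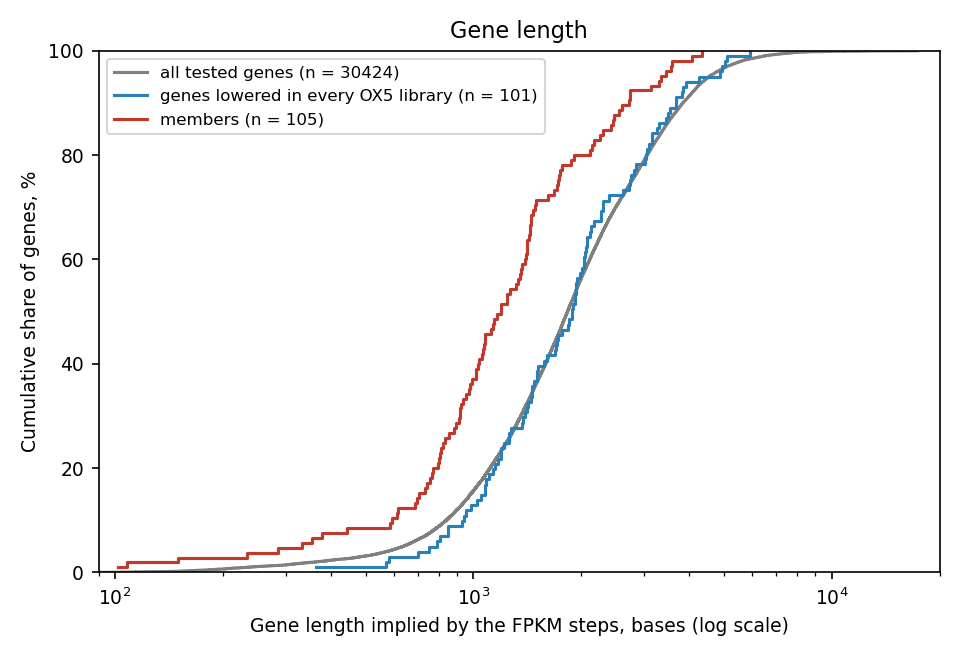
Cumulative share of genes by the length implied by the FPKM steps, on a log axis, for the members (red), the genes lower in every OX5 library by the mirrored rule (blue) and all tested genes (grey). The red curve lies to the left, with a median of 1191 bases, while the blue curve, at 1889, follows the grey one, at 1830.

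Length also moved with the libraries themselves. Among tested genes that were no members, the median difference from the WT mean in OX5 replicates 1 to 4 was 0.17, 0.15, 0.08 and 0.09 on the log2(FPKM + 1) scale for genes under 1000 bases, and 0.07, 0.09, −0.02 and −0.18 for genes of 2000 bases or more. OX5 replicate 4 had the widest gap between short and long genes. The part of this trend in the length of the members was not tested. Within the members, the median differences were 1.43, 1.75, 1.10 and 1.35 for the 39 genes under 1000 bases and 1.51, 1.61, 1.23 and 1.31 for the 21 of 2000 bases or more. All of them passed the same limit on these values, so the members' own values say nothing about the trend with length. The shortest member, of rank 65 on chromosome 15, was 102 bases long and had 17, 12, 17 and 17 reads in WT and 89, 61, 29 and 27 in OX5.

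The deposited table is not in order of gene ID. A row with no gene divides 2452 genes from the 29333 that follow, and the sources used here do not say what it marks. The members stood before it in 104 of 105 cases, with 34 in the first 100 rows, and that of rank 1 was in row 2. The exception was the gene of rank 87 described above, whose WT libraries ran from 0 to 10.1 FPKM. Of the 729 genes called by the limma fit in either direction, 717 stood before that row. The 5 members that the fit did not call were those of ranks 65, 74, 83, 87 and 88, of which 3 are described above for their spread or short length.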

How the data were processed

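RNA was extracted with Trizol from mature leaves and sequenced as Illumina libraries, 4 per line, per the labels' protocols. The authors deposited 1 table of FPKM with 4 decimals and 1 column per library, and 0 columns of per-sample values were left unused. The submitters' processing notes name HISAT2 2.1.0, HTSeq 0.6.0, Bowtie2 2.2.3, TopHat2 and CASAVA, with no roles. The sources used here name no strand setting or filter, and no genome build beyond the suffix Wm82.a4.v1 in gene IDs. Chromosome numbers were read from the gene IDs. A single row that names no gene was left out.

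Reads and gene lengths were recovered from the FPKM steps as the whole numbers that give back each value. This held for all 31785 genes within 0.0001 FPKM, with library totals of 17606189 to 19235221 reads in the scaling. These totals set the precision of low values, and intervals cover counting error only. A read count or length could still be off by a whole factor at a few genes; the recovery and the fit were tested on simulated data.

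The members and the settings were chosen with earlier results of these data known. The lines were compared by limma-trend (limma 3.58.1 in R 4.3.3) on log2(FPKM + 1). Genes averaging 0.5 FPKM or more over the 8 libraries were tested, 30424 in all, with Benjamini-Hochberg adjustment over all of them. All 105 members passed this filter, and their p-values are not given. Alternatives were other pseudocounts, filters, scalings, variance models, ratios and minimums, a replicate block, and each library left out in turn. Fits on recovered reads and without a pair of OX5 libraries were chosen after seeing the data. IDs are printed for the gene with the highest ratio and the gene with the highest mean in OX5, as no table names the IDs; gene lists by description were not used for the same reason. Other steps used Python 3.11.15 with pandas 2.3.3, numba 0.67.0, numpy 2.4.6, matplotlib 3.10.9 and scipy 1.17.1.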

Additional observations from a re-analysis of the deposited data

Results flagged for a closer look

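Groups of 4 values were examined for a lone value far from the other 3, for the members described library by library and for summaries of the libraries. This flagged 6 of 44 groups, where chance flags about 1 in 20. The 3 groups of very low counts were the WT values of rank 7, at 0.0567 FPKM in WT replicate 3, of rank 19, at 0.160 FPKM in WT replicate 1, and of rank 25, at 0.231 FPKM in WT replicate 1. In each the other 3 WT libraries were at 0, a pattern that always meets the limit, so the chance rate does not apply to these 3 groups. The WT values of the gene with the highest level, of rank 102, had a low WT replicate 2, at 260 FPKM, against 353 to 370 FPKM in the other WT libraries.

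The summed FPKM of OX5 replicate 4 was 623720, against 594118 to 597668 in the other OX5 libraries, and its reads, 17563140, were close to those of OX5 replicate 3. The median of the members relative to the WT mean of log2(FPKM + 1) was −0.0758 in WT replicate 1, against 0.03 to 0.05 in the other WT libraries, and over all tested genes it was −0.05 in that library.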

How the results depend on the processing

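All 105 members (96 where the filter kept fewer) were higher in OX5 in each of the 21 fits, as values that do not overlap leave little room otherwise. Against 105 genes, the rule gave 185 with a pseudocount of 0.1, 39 with 5, 418 with a lower ratio and 22 with a ratio of 2. Leaving out 1 library gave 108 to 209 genes. Chosen after seeing the data, leaving out OX5 replicates 1 and 2 gave 253 genes, and leaving out OX5 replicates 3 and 4 gave 1672. Other scalings gave 96 to 114 genes, of which 88 to 93 were among the 105. Against 729 genes called in all, weighting libraries by quality gave 9504, a stricter adjusted p of 0.01 gave 57, recovered reads tested with limma-voom 435, OX5 replicates 1 and 2 left out 242 and OX5 replicates 3 and 4 left out 5503. Leaving out 1 library gave 58 to 761 calls. Against 100 members called, and 421 of 30424 tested genes called higher, the adjusted p of 0.01 gave 23 members and 32 genes. With OX5 replicates 1 and 2 left out these were 45 and 126. Leaving out 1 library gave 26 to 98 members and 35 to 427 genes called higher. The median difference of the members, 1.37, became 1.64 with a pseudocount of 0.1 and 1.69 with limma-voom, both of which shrink low genes less, and stayed between 1.21 and 1.56 in 14 other fits. For the other differences the cause was not tested.

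A replicate block left 56 of 30424 tested genes called, 33 of them higher in OX5, and 20 of the members. Across genes, the deviations of WT and OX5 libraries that share a number had an r of −0.06, 0.07, 0.13 and −0.06, and 3 of the 8 libraries correlated best with their own number, so the number is not taken to pair the samples. Depth limits the members with few WT reads, whose folds have wide counting intervals.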
